A study of Mus musculus with 16 samples.

Results

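Nuclear-encoded genes of the mitochondrial respiratory chain were followed in bulk RNA sequencing of mouse lungs that carried HKP1 tumours. Members were the protein-coding rows of the deposited table whose symbol begins with Ndufa, Ndufb, Ndufc, Ndufs, Ndufv, Uqcr, Cox4 to Cox8 or Atp5, together with Sdha, Sdhb, Sdhc and Sdhd. The rule gave 92 of 30095 genes, and 10 rows with such a symbol but another biotype were left out. By role they comprised 7 core subunits, 30 accessory subunits and 8 assembly factors of complex I, 4 subunits of complex II, 8 of complex III, 11 ubiquitous and 6 tissue-restricted subunits of complex IV with the supercomplex factor gene Cox7a2l, and 17 genes of the ATP synthase. HKP1 is a mouse lung adenocarcinoma line, and every host was a C57BL/6 mouse. All libraries came from whole tumour-bearing lungs taken 24 to 48 hours after radiotherapy, each from a pool of 3 to 4 mice, so tumour, resident and infiltrating cells were measured together. The 6 groups combined a radiation dose with an antibody: at 0 Gy, 2 libraries had anti-PD-1 and 3 had IgG, the control antibody. At 4 Gy, 3 libraries had anti-PD-1 and 2 had IgG. At 8 Gy, 3 had anti-PD-1 and 3 had IgG. Anti-PD-1 blocks the checkpoint receptor that restrains T cells. The study's title is about whether factors secreted by irradiated club cells aid checkpoint blockade in lung cancer. Whether different pools drew on different mice is not stated, and p-values therefore speak only of the spread between pools.

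The respiratory chain passes electrons from NADH through complex I, or from succinate through complex II, to complex III and then to oxygen at complex IV, and the ATP synthase uses the proton gradient that complexes I, III and IV build. Most subunits are encoded in the nucleus and imported, while a small set in every complex but complex II is encoded by mitochondrial DNA, so assembly draws on both genomes. Several small subunits of complex IV exist in a ubiquitous form and in forms restricted to certain tissues: Cox6a2, Cox7a1 and Cox8b are known from heart and skeletal muscle, Cox6b2 from testis, and Cox4i2 from lung and oxygen-sensing cells. Ndufa4l2, a relative of the complex IV subunit gene Ndufa4, is known as a target of hypoxia-inducible factor and from pericytes, the contractile cells around capillaries.

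Promoters of these genes are known for binding sites of the nuclear respiratory factors NRF1 and GABP, and 4 sequences are shown because they hold such letters or, in a restricted isoform, hold none. Promoter sequences came from RefSeq (build GRCm38.p6), which had 79 entries for 74 members, and the 250 bases before each start were searched on both strands. The NRF1 palindrome (GCGCA, any base, then GCGC) stood in 15 of 79 member promoters (19%), against 6.98% of promoters of the genes tested and 3.74% of all promoters. The GABP letters CCGGAAG stood in 14 of 79 (17.7%), against 11.9% of promoters of genes tested and 6.91% of all promoters. Either motif was found in 25 genes, and 3 genes had both. The letters of YY1 (AAGATGG followed by CGG) and of ERRA (TCAAGG followed by TCA) stood in 1 member promoter each (1.27%, against 0.564% and 0.265% of promoters of genes tested). The core of the hypoxia response element, ACGTG, stood in 15 member promoters (19%), against 20.4% of promoters of genes tested. The NRF1 and GABP letters do not overlap in the sequences shown. Capitals mark the NRF1 letters, and the GABP letters as they read on the opposite strand (CTTCCGG). All 4 lie on the minus strand and are written 5′ to 3′ towards the start: Cox6a1 at chr5:115348959-115349208, Sdha at chr13:74350241-74350490, Cox6b1 at chr7:30626115-30626364 and Cox6b2 at chr7:4753095-4753344.
Cox6a1: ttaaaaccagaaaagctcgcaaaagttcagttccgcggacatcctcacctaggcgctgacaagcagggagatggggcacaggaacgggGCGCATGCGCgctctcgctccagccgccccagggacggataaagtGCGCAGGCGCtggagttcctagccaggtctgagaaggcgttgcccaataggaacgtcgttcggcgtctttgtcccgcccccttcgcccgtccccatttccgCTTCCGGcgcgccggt
Sdha: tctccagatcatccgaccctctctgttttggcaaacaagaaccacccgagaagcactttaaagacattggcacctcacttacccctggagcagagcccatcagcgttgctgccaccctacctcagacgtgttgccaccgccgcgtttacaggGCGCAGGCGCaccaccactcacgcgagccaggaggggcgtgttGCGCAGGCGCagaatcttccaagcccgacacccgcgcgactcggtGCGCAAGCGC
Cox6b1: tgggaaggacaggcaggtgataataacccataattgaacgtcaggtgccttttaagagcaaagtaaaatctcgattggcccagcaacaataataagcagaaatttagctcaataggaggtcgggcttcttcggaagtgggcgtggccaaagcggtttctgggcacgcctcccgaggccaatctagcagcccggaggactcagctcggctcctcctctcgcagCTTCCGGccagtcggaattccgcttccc
Cox6b2: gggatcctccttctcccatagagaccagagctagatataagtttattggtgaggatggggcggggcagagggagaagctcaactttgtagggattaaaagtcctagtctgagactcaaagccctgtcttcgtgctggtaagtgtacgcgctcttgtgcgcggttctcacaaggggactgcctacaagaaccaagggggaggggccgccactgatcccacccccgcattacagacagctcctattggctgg
Cox6a1, the ubiquitous form of a complex IV subunit, held the NRF1 letters at 2 places and the GABP letters at 1. Sdha, the catalytic subunit gene of complex II, held the NRF1 letters at 3 places, the last of them ending at the base before the start. Cox6b1 and Cox6b2 encode the ubiquitous and the testis form of the same subunit. Cox6b1 held the GABP letters once, and Cox6b2 held neither motif in this window.

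Values are CPM, reads scaled to a fixed total per library, and differences are log2 fold changes of CPM + 0.5 with their SE from limma, with Benjamini-Hochberg adjusted p-values over 17546 genes and a threshold of 0.05. That scale understates the change of low genes. Of the 92 members 91 were tested, all but Cox8b. A single read was worth 0.0155 to 0.0418 CPM. In the anti-PD-1 4 Gy group, replicates 2 and 3 stood apart, with 6086 and 5315 genes at 0 against 2273 to 3851 in the other libraries. Counts of members that rest on them are also given without both. That leaves only replicate 1 in that group, so few calls there do not show that a difference is absent. Values of cell type markers, mitochondrially encoded genes and genes beside the chain are given only with both included. The same holds for the relations to length and base composition. Counts of members under other settings, such as a single library left out or a correction for length, are mostly given without the share of all genes. Such counts do not set members apart from other genes. The number after S in the titles ran from 13 to 17 for unirradiated and from 26 to 36 for irradiated libraries. What these numbers stand for is not given in the sources used here; were they to follow a batch, it could not be told apart from irradiation. In bulk tissue, fewer cells of a type and less RNA per cell cannot be told apart either. As a check of the tissue, the summed level of 7 markers of alveolar type 2 cells ran from 1014 to 13465 CPM over the libraries.

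Per kilobase of annotated exon, the mean level over all libraries was highest for Cox8a (280 CPM per kilobase), Cox6a1 (252), Cox4i1 (237) and Atp5a1 (199), and lowest for Atp5g2 (0.632) and Cox8b (0.658). Cox8a, Cox6a1 and Cox4i1 are ubiquitous subunit genes of complex IV, and Atp5a1 encodes the alpha subunit of the ATP synthase head. Each restricted isoform stood far below its ubiquitous counterpart on the same scale: Cox4i2 had 4.48 CPM per kilobase and Cox4i1 237, Cox6a2 4.55 and Cox6a1 252, Cox6b2 5.89 and Cox6b1 194, Cox7a1 2.39 and Cox7a2 73.2, Cox8b 0.658 and Cox8a 280, and Ndufa4l2 2.88 and Ndufa4 55.7. The measured levels of the 3 genes that encode the same subunit c of the rotating ring differed as widely. They were 51.1 CPM per kilobase for Atp5g3, 7.65 for Atp5g1 and 0.632 for Atp5g2. How reads that match several genes were counted is not given in the sources used here. Without regard to length, Atp5a1 had the highest mean level, 625 CPM, and Cox8b the lowest, 0.237 CPM, with a library at 0 and a highest library of 1.18 CPM. The summed level of all members was narrow over the libraries, from 5881 to 7217 CPM or 0.657 to 0.794% of the listed CPM. By dose it averaged 6398 ± 405 CPM at 0 Gy (SD, n = 5), 6479 ± 466 CPM at 4 Gy (n = 5) and 6637 ± 509 CPM at 8 Gy (n = 6).

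The heaviest dose was compared with no irradiation over both antibodies (6 and 5 libraries), and no member passed the test. Of 91 members 0 were called at 8 Gy against 0 Gy, where 20.7% of all genes tested were. At an unadjusted p under 0.05, 8 lay higher and 4 lower. Such counts, here and below, are given without the share of all genes at that cut-off. They therefore do not set members apart from other genes. The log2 fold changes of the 91 members ran from -0.30 to 0.50. The 95% interval of the fold change lay within 2-fold for all 91 and within 1.5-fold for 75. The lowest adjusted p belonged to Ndufb4, an accessory subunit gene of complex I's membrane arm, which averaged 4.41 ± 0.649 CPM at 8 Gy, against 3.01 ± 0.763 CPM at 0 Gy (0.49 ± 0.17, adjusted p = 0.0571). Ndufa5, an accessory subunit gene of the peripheral arm, had 0.37 ± 0.13 (adjusted p = 0.0583). Most members lay on the higher side, 63 of 91, with a median of 0.10 against -0.09 for all genes tested. In the ATP synthase all 17 genes lay above 0 (0.01 to 0.30, median 0.11), and in complex III 7 of 8 (median 0.08), while 2 of 7 core subunit genes of complex I did (median -0.03). Atp5b, the catalytic beta subunit gene, averaged 613 ± 26.7 CPM at 8 Gy, against 567 ± 50.9 CPM at 0 Gy (0.12 ± 0.08, adjusted p = 0.338). Cox4i1, the ubiquitous regulatory subunit gene of complex IV, stood at 350 ± 69.8 and 365 ± 57.6 CPM at the same doses (-0.08 ± 0.12, adjusted p = 0.679). Sdhb, the iron-sulphur subunit gene of complex II, had 0.14 ± 0.09 (adjusted p = 0.307), and Uqcrfs1, which carries the iron-sulphur centre of complex III, 0.06 ± 0.08 (adjusted p = 0.648). These small positive differences depend on the scaling of the libraries: when library medians were set equal, 9 members passed the test, all higher, and the median of all genes moved to 0.02, with 1568 genes higher and 1915 lower in place of 822 and 2818. When IgG 0 Gy replicate 2 was left out 4 members passed. Leaving out IgG 0 Gy replicate 3, anti-PD-1 4 Gy replicate 1 or both libraries that stood apart let 2 pass in each case.

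**Figure D1:**
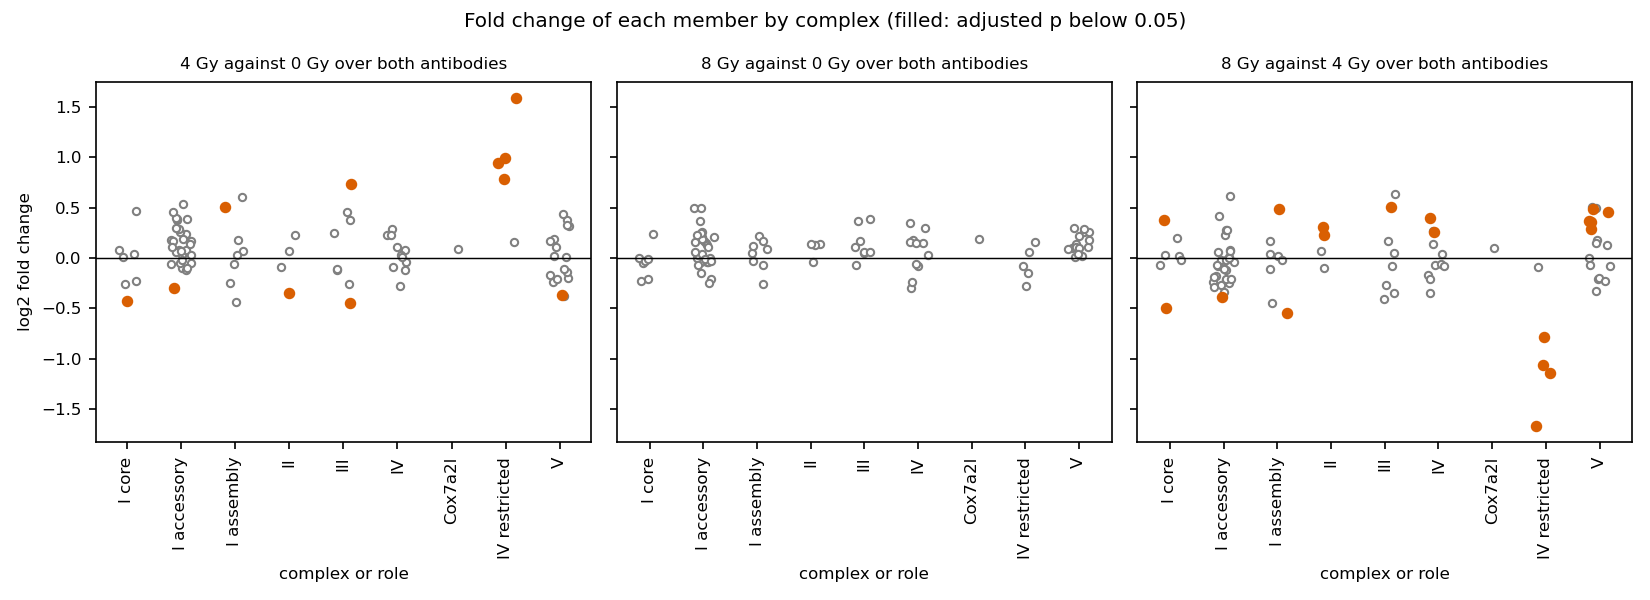
Log2 fold change of CPM + 0.5 of each of the 91 members tested, by role, in 3 panels: 4 Gy against 0 Gy, 8 Gy against 0 Gy and 8 Gy against 4 Gy over both antibodies. Filled points passed the threshold of 0.05: 11 at 4 Gy against 0 Gy, 0 at 8 Gy against 0 Gy and 19 at 8 Gy against 4 Gy. The restricted isoforms Cox4i2, Cox6b2, Cox6a2 and Ndufa4l2 lie farthest from 0 at 4 Gy against 0 Gy and at 8 Gy against 4 Gy.

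At 4 Gy, 4 complex IV isoform genes of restricted tissue range rose over both antibodies, and 5 subunit genes of complexes I, II and III and the ATP synthase fell (5 libraries against 5 at 0 Gy). Of 91 members 11 passed the test, 6 higher and 5 lower, or 12.1%, where 17.5% of all genes tested did, so members were called no more often than other genes. The isoforms that rose, of 5 tested, were Cox4i2, Cox6b2, Cox6a2 and Ndufa4l2, and the fifth, Cox7a1, had 0.16 ± 0.17 (adjusted p = 0.498). Cox4i2 (mm10, chromosome 2, 152754173 to 152765037, plus strand, 788 exon bases) had 7.87, 9.78 and 9.20 CPM with anti-PD-1 and 3.99 and 5.44 CPM with IgG at 4 Gy, against 2.24 and 2.24 CPM with anti-PD-1 and 1.54, 0.489 and 3.22 CPM with IgG at 0 Gy. The doses did not overlap, 4 Gy being the higher in all libraries and within each antibody. Its mean was 7.26 ± 2.47 CPM at 4 Gy and 1.95 ± 1.01 CPM at 0 Gy (SD, n = 5 each), a log2 fold change of 1.59 ± 0.29 (adjusted p = 0.0102). Its ubiquitous counterpart Cox4i1 averaged 392 ± 36.8 CPM at 4 Gy, against 365 ± 57.6 CPM at 0 Gy (0.08 ± 0.13, adjusted p = 0.651). At 4 Gy, too, every library had far less Cox4i2 than Cox4i1.

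Ndufa4l2 (chromosome 10, 127514967 to 127517154, plus strand) had 4.97, 6.52 and 5.46 CPM with anti-PD-1 and 3.27 and 4.64 CPM with IgG at 4 Gy, against 2.61 and 1.77 CPM with anti-PD-1 and 3.39, 3.69 and 1.96 CPM with IgG at 0 Gy. The doses did not overlap with anti-PD-1 and overlapped with IgG. The difference was 0.78 ± 0.20 (adjusted p = 0.024), against -0.28 ± 0.11 for Ndufa4 (adjusted p = 0.0715). Cox6a2, the heart and muscle form (chromosome 7, 128205435 to 128206387, minus strand), averaged 4.76 ± 1.26 CPM at 4 Gy, against 2.24 ± 0.948 CPM at 0 Gy (0.94 ± 0.23, adjusted p = 0.021). Itgad, an integrin gene that overlaps Cox6a2 on the other strand, had -0.22 ± 0.42 (adjusted p = 0.715). The counterpart Cox6a1 had 0.29 ± 0.18 (adjusted p = 0.256). Cox6b2 (chromosome 7, 4751792 to 4753094, minus strand) had 11.9, 18.1 and 21.2 CPM with anti-PD-1 and 5.34 and 3.32 CPM with IgG at 4 Gy, against 3.24 and 4.63 CPM with anti-PD-1 and 4.02, 2.07 and 8.24 CPM with IgG at 0 Gy. Its high values were thus the 3 anti-PD-1 libraries, and the mean difference of 0.99 ± 0.32 (adjusted p = 0.046) was 0.02 within IgG. That call held under 10 of the 31 alternatives run. Cox6b1 had 0.23 ± 0.12 (adjusted p = 0.156). Cox8b, which did not pass the filter, was at 0.234, 0.92 and 1.18 CPM in the anti-PD-1 4 Gy libraries and at 0.0826 to 0.301 CPM in the 5 libraries at 0 Gy, near the 0.0465 to 0.125 CPM that 3 reads are worth.

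**Figure D2:**
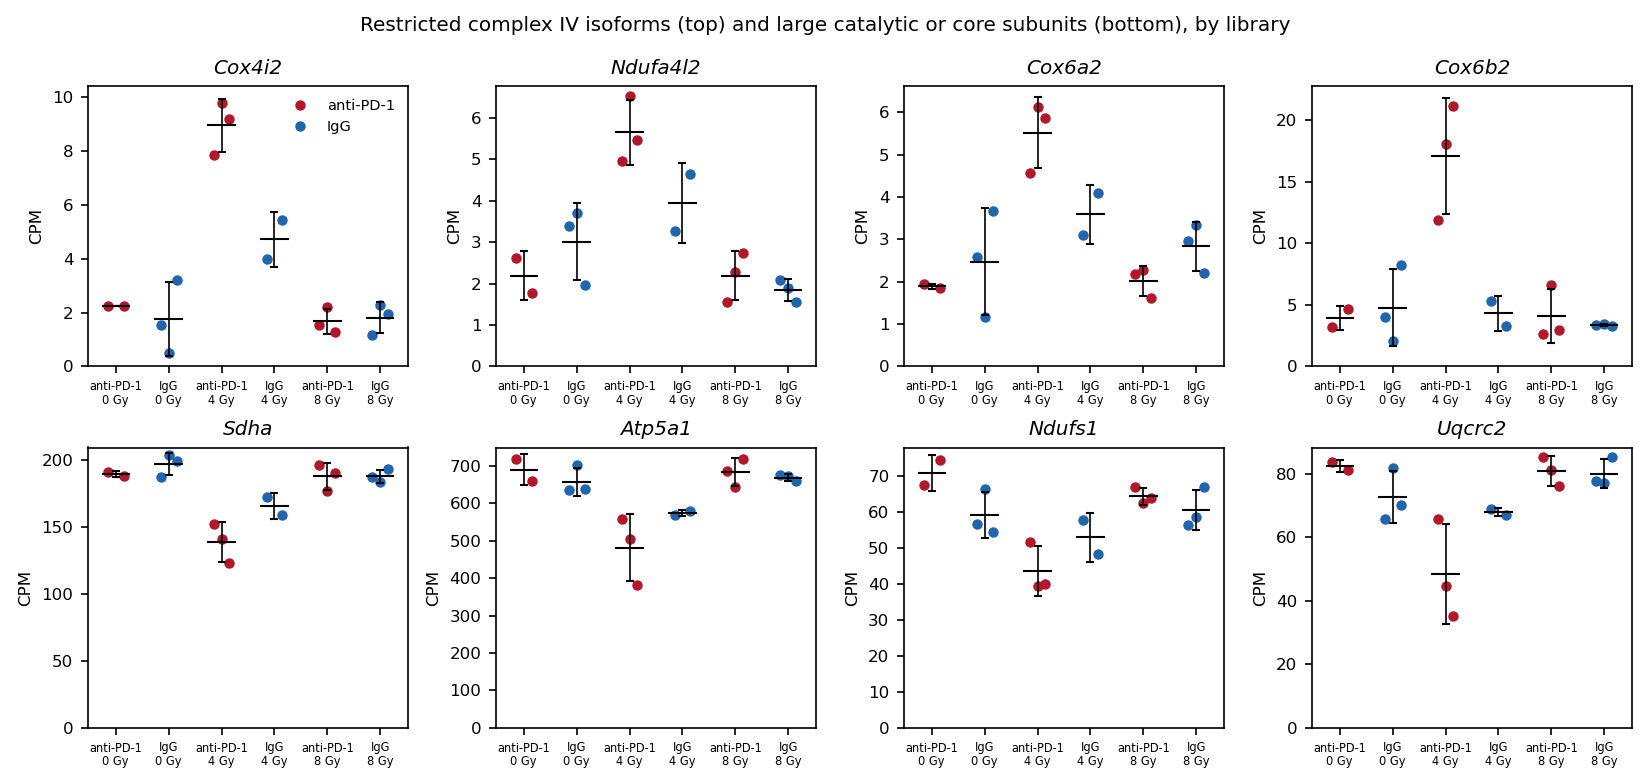
CPM of 8 members in each library (points) with the mean and SD of each group, by dose in Gy and antibody. Cox4i2, Ndufa4l2, Cox6a2 and Cox6b2 in the upper row have their highest group mean with anti-PD-1 at 4 Gy, and Sdha, Atp5a1, Ndufs1 and Uqcrc2 in the lower row have their lowest there.

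Markers of several cell types moved with these isoforms, with both libraries that stood apart included. Of all genes tested 17.5% were called at 4 Gy against 0 Gy, and 91 genes were without both libraries. Of 9 markers of pericytes and smooth muscle 3 rose at 4 Gy against 0 Gy and 0 fell, with summed levels of 87.8 to 132 CPM at 4 Gy and 80.4 to 111 CPM at 0 Gy, and none of the 9 was at 0 in any library. All 7 endothelial markers lay at summed levels of 386 to 732 CPM at 4 Gy and 151 to 468 CPM at 0 Gy, and 5 rose. Of 7 alveolar type 2 markers 6 rose, with sums of 5483 to 13465 CPM at 4 Gy and 1014 to 5302 CPM at 0 Gy. Of 5 club cell markers 4 rose, with sums of 5420 to 18315 CPM at 4 Gy and 1095 to 4854 CPM at 0 Gy, and of 6 ciliated cell markers 2 rose, with sums of 53.6 to 202 CPM at 4 Gy and 15.7 to 73.9 CPM at 0 Gy. Of 14 markers tested of heart and skeletal muscle, the known site of Cox6a2, 1 rose and 6 fell. Sums over all 18 markers listed, heart and skeletal together, were 28.8 to 118 CPM at 4 Gy and 42.8 to 81.1 CPM at 0 Gy. The list moved in both directions. The 6 that fell, Acta1, Tnnt3, Ckm, Myh1, Tnnc2 and Mylpf, are genes of skeletal muscle, with Acta1 at -2.69 ± 0.31 (adjusted p = 0.000849). The gene that rose was Myh6, a myosin heavy chain gene of the heart (1.62 ± 0.41, adjusted p = 0.0244). Within anti-PD-1 the heart genes Myh6 (2.81 ± 0.58, adjusted p = 0.00524), Tnni3 (2.50 ± 0.66, adjusted p = 0.0116) and Myh7 (1.45 ± 0.52, adjusted p = 0.0404) were higher at 4 Gy than at 0 Gy, while within IgG no marker of the list passed. The difference between the antibodies in this dose effect passed for Tnni3 (3.44 ± 0.94, adjusted p = 0.0447) and did not for Myh6 (2.39 ± 0.83, adjusted p = 0.0704) or Myh7 (0.93 ± 0.74, adjusted p = 0.387). Heart and skeletal genes of the list are therefore given apart. Tnni3, cardiac troponin I, had 21.5, 62.3 and 61.8 CPM with anti-PD-1 at 4 Gy, against 5.65 and 9.45 CPM with anti-PD-1 at 0 Gy. With IgG it had 5.73 and 2.87 CPM at 4 Gy, against 6.54, 3.18 and 25.6 CPM at 0 Gy. The 2 highest libraries were thus those that stood apart, and anti-PD-1 4 Gy replicate 1 lay below IgG 0 Gy replicate 3. Other genes of the list varied with anti-PD-1. Tnnt2 had 17.2, 22.1 and 20.6 CPM at 4 Gy, against 25.3 and 18.6 CPM at 0 Gy. Mb had 1.15, 0.739 and 2.44 CPM, against 5.53 and 4.53 CPM, and Actc1 3.31, 2.49 and 3.71 CPM, against 1.00 and 2.17 CPM. Myh6, Tnni3 and Myh7 were singled out after their values were seen. Of the muscle markers Myh2 was at 0 in 13 libraries, Myh4 in 10 and Myh1 in 6. The part of these cell types in the levels of the isoforms was not tested.

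Outside the isoforms, Uqcrq, a small subunit gene of complex III, and Ndufaf3, an assembly factor gene of complex I, rose at 4 Gy. Uqcrq averaged 71.6 ± 21 CPM at 4 Gy, against 42.3 ± 11.8 CPM at 0 Gy (0.73 ± 0.19, adjusted p = 0.0234), and Ndufaf3 13.6 ± 3.41 and 9.14 ± 1.46 CPM (0.51 ± 0.15, adjusted p = 0.0323). Impdh2, a purine synthesis gene that overlaps Ndufaf3 on the other strand, had -0.39 ± 0.13 (adjusted p = 0.0475). The 5 that fell were Sdha, Ndufs1, Atp5a1, Uqcrc2 and Ndufa9, which encode the catalytic flavoprotein of complex II, the largest core subunit of complex I, the alpha subunit of the ATP synthase, a core protein of complex III and an accessory subunit of complex I. Sdha (chromosome 13, 74322254 to 74350280, minus strand) had 153, 141 and 123 CPM with anti-PD-1 and 172 and 159 CPM with IgG at 4 Gy, against 191 and 188 CPM with anti-PD-1 and 188, 204 and 199 CPM with IgG at 0 Gy. Every 4 Gy library was below every 0 Gy library. The difference was small but tight, -0.35 ± 0.08 (adjusted p = 0.019). Atp5a1 (chromosome 18, 77773729 to 77782869, plus strand) showed the same separation, with 557, 504 and 382 CPM with anti-PD-1 and 568 and 580 CPM with IgG at 4 Gy, against 719 and 660 CPM with anti-PD-1 and 635, 701 and 637 CPM with IgG at 0 Gy (-0.37 ± 0.10, adjusted p = 0.0308). Haus1, a gene of the mitotic spindle that overlaps Atp5a1 on the other strand, had -0.54 ± 0.13 (adjusted p = 0.0217), and reads of both cannot be told apart without strand. Ndufs1 averaged 47.4 ± 7.87 CPM at 4 Gy, against 63.8 ± 8.22 CPM at 0 Gy (-0.43 ± 0.11, adjusted p = 0.0217). Uqcrc2 averaged 56.3 ± 15.4 and 76.5 ± 7.95 CPM (-0.45 ± 0.14, adjusted p = 0.0405), and Ndufa9 had -0.30 ± 0.09 (adjusted p = 0.0391). Other members of the same complexes did not pass: Ndufv1, the flavin-binding core subunit gene of complex I, had -0.26 ± 0.10 (adjusted p = 0.0874), Sdhb 0.07 ± 0.10 (adjusted p = 0.590), Uqcrc1 -0.12 ± 0.11 (adjusted p = 0.435) and Atp5b -0.17 ± 0.09 (adjusted p = 0.162).

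The count at 4 Gy against 0 Gy was not stable. It was 0 without both libraries that stood apart, where 91 of all genes tested were called, 7 when anti-PD-1 4 Gy replicate 2 was left out and 4 when replicate 3 was. Leaving out IgG 4 Gy replicate 2 gave 0, anti-PD-1 0 Gy replicate 2 gave 1, IgG 4 Gy replicate 1 or anti-PD-1 0 Gy replicate 1 gave 5, and IgG 0 Gy replicate 1 or 2 gave 6. It was 30 when anti-PD-1 4 Gy replicate 1 was left out and 21 when IgG 0 Gy replicate 3 was. How the count of all genes moved with a single library left out is not given. Without both libraries that stood apart the 11 members kept their direction. Uqcrc2 moved most, to -0.20 ± 0.10 (adjusted p = 0.295). Of the others that fell, Sdha had -0.28 ± 0.09 (adjusted p = 0.137), Ndufs1 -0.30 ± 0.11 (adjusted p = 0.185), Atp5a1 -0.25 ± 0.09 (adjusted p = 0.189) and Ndufa9 -0.22 ± 0.10 (adjusted p = 0.250). Of those that rose, Cox4i2 had 1.505 ± 0.371 (adjusted p = 0.0943), Cox6a2 0.82 ± 0.28 (adjusted p = 0.161), Ndufa4l2 0.70 ± 0.24 (adjusted p = 0.164), Uqcrq 0.57 ± 0.21 (adjusted p = 0.192), Ndufaf3 0.39 ± 0.16 (adjusted p = 0.226) and Cox6b2 0.76 ± 0.39 (adjusted p = 0.307). Scaling moved the balance of directions: 18 lay higher and 3 lower after quantile normalization, and 11 and 1 with equal library medians. Over all genes tested, quantile normalization turned 935 higher and 2141 lower into 1343 and 1061.

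**Figure D3:**
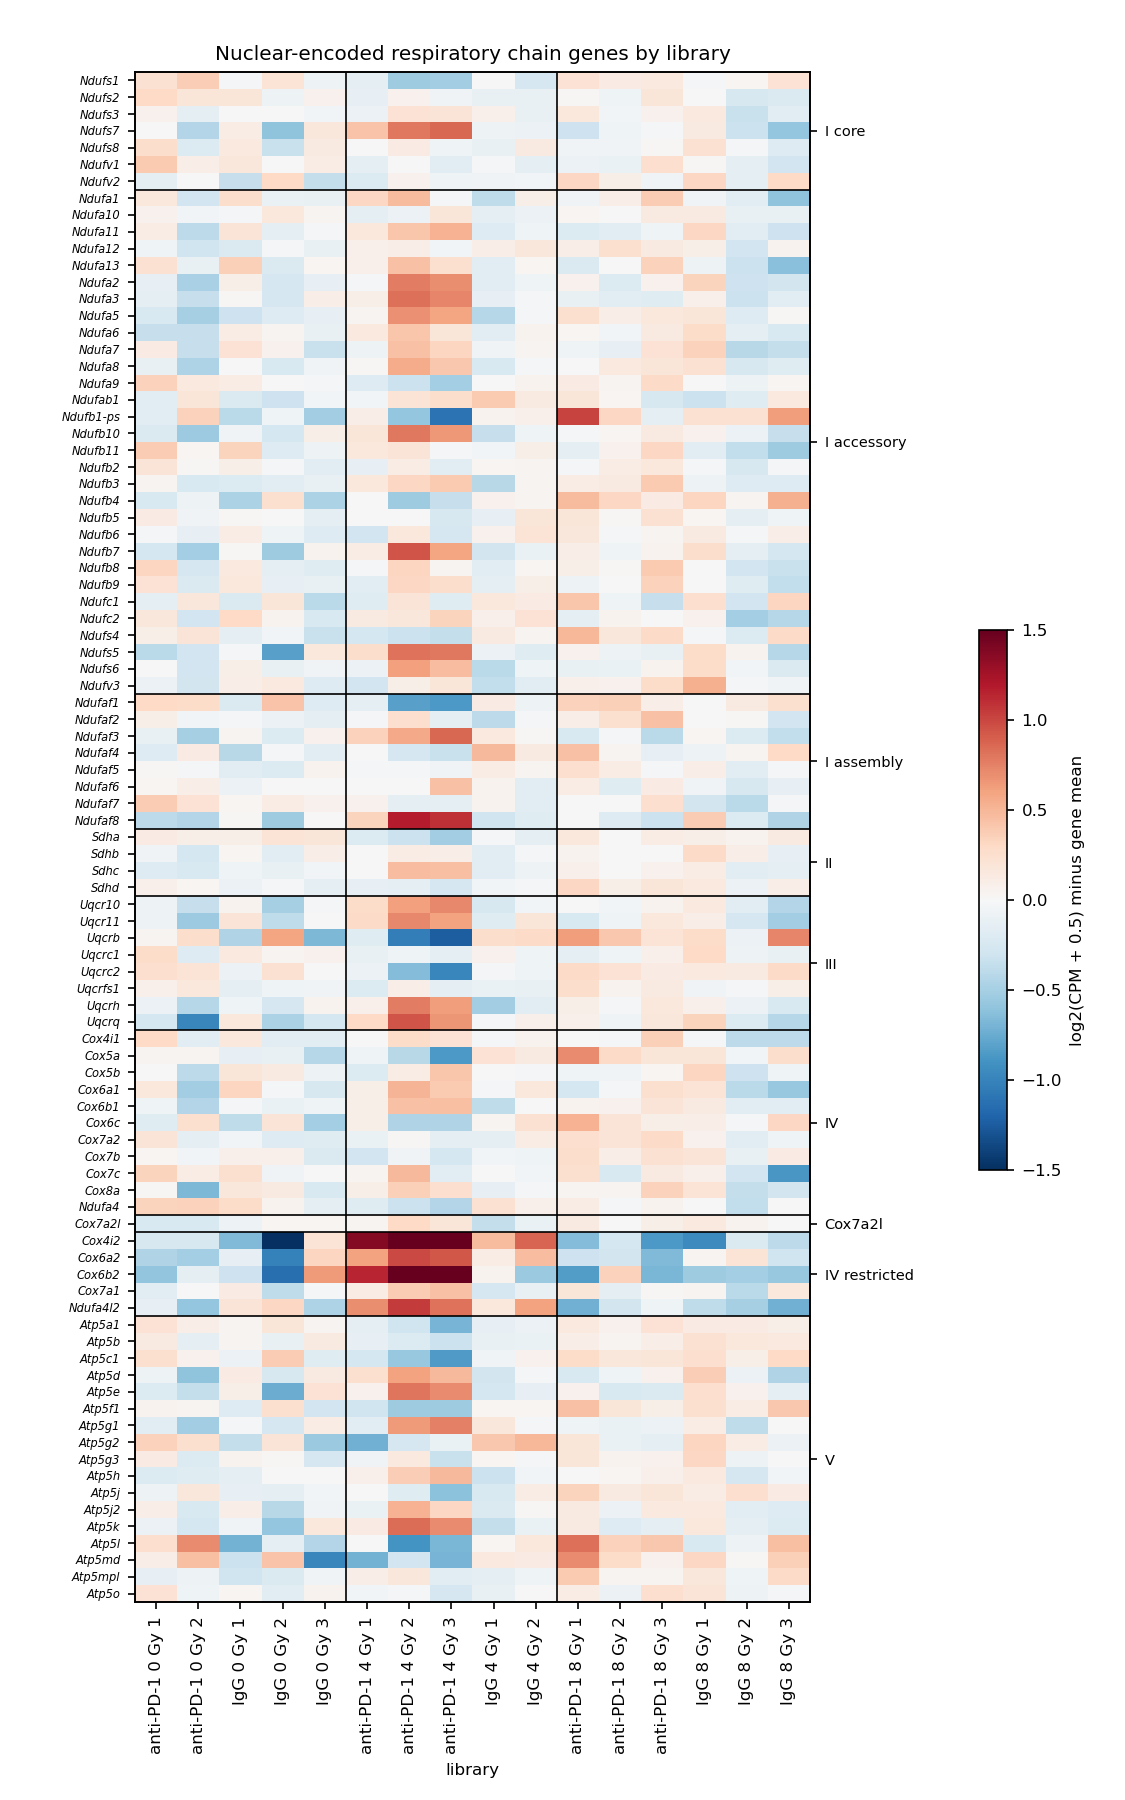
Log2(CPM + 0.5) of the 91 members tested minus each gene's mean over the 16 libraries (colour, cut at 1.5 in either direction), with genes in rows grouped by role and libraries in columns by group. Cox4i2, Ndufa4l2, Cox6a2 and Cox6b2 are high in the anti-PD-1 4 Gy columns, while Sdha, Ndufs1, Uqcrc2 and Atp5a1 are low there.

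Between the irradiated groups (6 libraries at 8 Gy and 5 at 4 Gy) Cox4i2, Ndufa4l2, Cox6b2 and Cox6a2 were lower at the higher dose. Of 91 members 19 passed, 12 higher and 7 lower, or 20.9%. Of all genes tested 34.3% passed, 2988 higher and 3023 lower, so members were called no more often than other genes. This comparison shares the 4 Gy libraries with the one above. Of the 17 ATP synthase genes 5 were higher and 0 lower: Atp5f1 (subunit b of the peripheral stalk, 0.46 ± 0.11, adjusted p = 0.00695), Atp5c1 (the gamma subunit of the central stalk, 0.49 ± 0.12, adjusted p = 0.00887), Atp5a1 (0.37 ± 0.10, adjusted p = 0.0111), Atp5b (0.29 ± 0.08, adjusted p = 0.0171) and Atp5j (a peripheral stalk subunit, 0.36 ± 0.11, adjusted p = 0.0291). The 8 Gy libraries lay above all 4 Gy libraries for each of these 5. They were named for passing this test, and how many of all genes were so separated is not given. Atp5c1 had 167, 155 and 157 CPM with anti-PD-1 and 165, 147 and 170 CPM with IgG at 8 Gy, against 115, 92.6 and 76.1 CPM with anti-PD-1 and 134 and 144 CPM with IgG at 4 Gy. The summed level of the 17 genes averaged 2107 ± 96 CPM at 0 Gy, 1917 ± 109 CPM at 4 Gy and 2246 ± 91.3 CPM at 8 Gy. The other 12 did not pass. Atp5k had -0.23 ± 0.16 (adjusted p = 0.272), Atp5d -0.21 ± 0.15 (adjusted p = 0.284) and Atp5e -0.20 ± 0.18 (adjusted p = 0.406). Of the 3 subunit c genes, Atp5g1 had -0.32 ± 0.16 (adjusted p = 0.125), Atp5g2 0.00 ± 0.18 (adjusted p = 0.996) and Atp5g3 0.13 ± 0.11 (adjusted p = 0.401). Gabpa, which encodes a subunit of GABP and overlaps Atp5j on the other strand, had 0.56 ± 0.12 (adjusted p = 0.00482), so the value of Atp5j is uncertain.

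In complex II, Sdha (188 ± 7.04 CPM at 8 Gy and 150 ± 18.7 CPM at 4 Gy) was higher by 0.31 ± 0.08 (adjusted p = 0.00903) and Sdhd, a membrane anchor, by 0.23 ± 0.08 (adjusted p = 0.0368). Uqcrc2 was higher by 0.50 ± 0.13 (adjusted p = 0.0105), Ndufs1 by 0.38 ± 0.10 (adjusted p = 0.0117) and the assembly factor gene Ndufaf1 by 0.49 ± 0.17 (adjusted p = 0.0357). In complex IV the ubiquitous subunit genes Cox7b (0.26 ± 0.09, adjusted p = 0.0378) and Cox5a (0.40 ± 0.14, adjusted p = 0.0437) were higher, while Cox4i1 (-0.16 ± 0.12, adjusted p = 0.309), Cox5b (-0.07 ± 0.13, adjusted p = 0.691) and Cox7c (-0.20 ± 0.17, adjusted p = 0.363) did not pass. Cox4i2 was lower by the widest margin of any member, at 1.55, 2.20 and 1.28 CPM with anti-PD-1 and 1.16, 2.29 and 1.96 CPM with IgG at 8 Gy, against 7.87, 9.78 and 9.20 CPM with anti-PD-1 and 3.99 and 5.44 CPM with IgG at 4 Gy. No library of one dose reached the range of the other. Its log2 fold change was -1.67 ± 0.28 (adjusted p = 0.00109). Ndufa4l2 fell by 1.06 on the log2 scale (SE 0.19, adjusted p = 0.00147), again without overlap, and averaged 2.02 ± 0.457 CPM at 8 Gy and 4.97 ± 1.19 CPM at 4 Gy. Shmt2, on the other strand of Ndufa4l2, had -0.15 ± 0.14 (adjusted p = 0.435). Cox6b2 had -1.14 ± 0.30 (adjusted p = 0.0116) and Cox6a2 -0.78 ± 0.22 (adjusted p = 0.0145). The other members that fell were Ndufaf3 (-0.54 ± 0.14, adjusted p = 0.00964), Ndufs7, a core subunit gene next to the quinone site of complex I (-0.49 ± 0.17, adjusted p = 0.0355), and the accessory subunit gene Ndufa3 (-0.38 ± 0.13, adjusted p = 0.0377).

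Without both libraries that stood apart, 2 members passed at 8 Gy against 4 Gy, Cox4i2 (-1.58 ± 0.36, adjusted p = 0.0181) and Ndufa4l2 (-0.98 ± 0.23, adjusted p = 0.022), where 2200 of all genes tested were called. Of the other members called, 5 moved by over 1.5 times: Uqcrc2 to 0.26 ± 0.10 (adjusted p = 0.0988), Cox5a to 0.20 ± 0.14 (adjusted p = 0.342), Ndufaf1 to 0.25 ± 0.17 (adjusted p = 0.345), Atp5j to 0.22 ± 0.11 (adjusted p = 0.199) and Ndufa3 to -0.15 ± 0.12 (adjusted p = 0.416). Leaving out either IgG 4 Gy library gave 10, anti-PD-1 4 Gy replicate 3 or anti-PD-1 8 Gy replicate 1 gave 12, and anti-PD-1 4 Gy replicate 1 gave 29. Cox4i2 and Ndufa4l2 passed under each of the 31 alternatives run. With values corrected for transcript GC, Atp5f1 (-0.039) and Cox7b (-0.065) turned sign. With both of those libraries included, cell type markers again moved with the isoforms, where 34.3% of all genes tested were called. Of the pericyte and smooth muscle markers 8 of 9 were lower and 0 higher, with sums of 29.1 to 64.3 CPM at 8 Gy and 87.8 to 132 CPM at 4 Gy. All 7 alveolar type 2 markers were lower (sums of 1517 to 2922 CPM at 8 Gy and 5483 to 13465 CPM at 4 Gy), as were all 7 endothelial markers (148 to 286 and 386 to 732 CPM), all 5 club cell markers (747 to 5600 and 5420 to 18315 CPM) and all 6 ciliated cell markers (7.95 to 50.9 and 53.6 to 202 CPM). Of 14 muscle markers tested 5 were lower, Myh6, Myh7, Actc1, Tcap and Mb. Sums over all 18 muscle markers listed were 22.4 to 43.9 CPM at 8 Gy and 28.8 to 118 CPM at 4 Gy. Of 5 cell cycle markers 4 were higher, with sums of 586 to 778 CPM at 8 Gy and 416 to 598 CPM at 4 Gy. Their part in the members' values was not tested.

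Within antibodies, the calls of 4 Gy lay with anti-PD-1, for members as for all genes tested. Without both libraries that stood apart, that group held only replicate 1, too few to show whether the calls hold. At 4 Gy against 0 Gy, 40 of 91 members passed with anti-PD-1 (27 higher, 13 lower, or 44.0%, where 39.3% of all genes tested did), and 0 passed with IgG, where 0.0057% of genes did and where 4 members lay higher and 1 lower at an unadjusted p under 0.05 (1 passed without IgG 0 Gy replicate 3). The interaction, which tests the difference itself, was passed by 6 members (6.59%, against 9.08% of all genes tested), so the other members were not shown to differ between antibodies. The 6 were Ndufb10, an accessory subunit gene of complex I, Uqcrh, the hinge protein gene of complex III, and Cox7a2l, whose difference was more positive with anti-PD-1, and Atp5l, Atp5g2 and Ndufa4, whose difference was more negative. Ndufb10 had 69.5, 107 and 96.2 CPM with anti-PD-1 and 47.9 and 58.7 CPM with IgG at 4 Gy, against 52.8 and 41.9 CPM with anti-PD-1 and 59.1, 51.0 and 64.9 CPM with IgG at 0 Gy. The rise thus stood in the anti-PD-1 libraries (0.92 ± 0.19, adjusted p = 0.0052), while IgG had -0.13 ± 0.19 (adjusted p = 0.828). Uqcrh had 97.5, 157 and 143 CPM with anti-PD-1 and 64.0 and 82.4 CPM with IgG at 4 Gy, against 86.9 and 68.6 CPM with anti-PD-1 and 88.3, 77.7 and 95.3 CPM with IgG at 0 Gy. Atp5l, a membrane subunit gene of the ATP synthase, had 15.4, 8.00 and 9.35 CPM with anti-PD-1 and 15.6 and 17.1 CPM with IgG at 4 Gy, against 18.3 and 25.2 CPM with anti-PD-1 and 9.16, 13.8 and 11.2 CPM with IgG at 0 Gy. Its difference was -1.0 ± 0.28 with anti-PD-1 (adjusted p = 0.0148) and 0.52 ± 0.28 with IgG (adjusted p = 0.489), and at 0 Gy the anti-PD-1 libraries lay above the IgG libraries without overlap. The count of 6 was 0 without both libraries that stood apart, and leaving out anti-PD-1 4 Gy replicate 1 gave 36, IgG 0 Gy replicate 2 gave 32 and IgG 8 Gy replicate 1 gave 2. Leaving out any other single library but IgG 8 Gy replicate 3 gave 0.

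Among the other members called at 4 Gy with anti-PD-1 were Uqcrq (1.26 ± 0.26, adjusted p = 0.00524), the assembly factor gene Ndufaf8 (1.29 ± 0.29, adjusted p = 0.00638) and the isoforms Cox6b2 (1.97 ± 0.45, adjusted p = 0.00669), Cox4i2 (1.78 ± 0.41, adjusted p = 0.00704), Ndufa4l2 (1.20 ± 0.28, adjusted p = 0.00726) and Cox6a2 (1.32 ± 0.32, adjusted p = 0.00826). With IgG, Cox4i2 had 1.40 ± 0.41 (adjusted p = 0.26). Ndufs1 fell by 0.70 on the log2 scale (adjusted p = 0.00544), Uqcrc2 by 0.80 (adjusted p = 0.00807) and Sdha by 0.45 (adjusted p = 0.00998), and with IgG Sdha had -0.25 ± 0.12 (adjusted p = 0.434). The count with anti-PD-1 was 0 without both libraries that stood apart, where 28 genes were called in all, 2 when anti-PD-1 0 Gy replicate 2 was left out, and 26 and 24 when replicate 2 and replicate 3 of anti-PD-1 4 Gy were. At 8 Gy against 4 Gy, 36 members passed with anti-PD-1 (21 higher, 15 lower, or 39.6%, where 41.8% of all genes tested did) and 0 with IgG (7.58% of genes, with 3 members higher and 3 lower at an unadjusted p under 0.05). With IgG the count was 2 without IgG 0 Gy replicate 2 or replicate 3. With anti-PD-1 this count was 0 when both libraries that stood apart were left out, 18 when anti-PD-1 4 Gy replicate 3 was and 21 when anti-PD-1 8 Gy replicate 1 was. At 8 Gy against 0 Gy 0 members passed with anti-PD-1 (2.83% of genes, with 9 members higher and 0 lower at an unadjusted p under 0.05). With IgG 0 passed as well (10.6% of genes, with 4 members higher and 3 lower), or 5 without IgG 0 Gy replicate 2. The interactions of 8 Gy against 0 Gy and of 8 Gy against 4 Gy gave 0 members and 0% of all genes tested. At an unadjusted p under 0.05, 1 member was higher and 0 lower in the interaction of 8 Gy against 0 Gy, and 9 were higher and 11 lower in that of 8 Gy against 4 Gy, where 20 members passed when anti-PD-1 4 Gy replicate 1 was left out and 3 when IgG 0 Gy replicate 3 was.

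Anti-PD-1 was compared with IgG over all doses (8 libraries each), and 0 of 91 members passed, where 0.234% of all genes tested did. At an unadjusted p under 0.05, 6 members lay higher and 0 lower, and 66 of 91 lay above 0, with a median of 0.08 against 0.01 for all genes tested. The 95% interval lay within 1.5-fold for 86 members and within 2-fold for 90. Ndufb3, an accessory subunit gene of complex I, had the lowest adjusted p (0.30 ± 0.09, adjusted p = 0.0958). When anti-PD-1 4 Gy replicate 1 was left out 2 members passed, and 1 when IgG 0 Gy replicate 3 was. By dose, 0 members passed at 0 Gy (0.274% of genes, with 1 higher and 1 lower at an unadjusted p under 0.05) and 0 at 8 Gy (0.0057% of genes, with 7 higher and 0 lower). At 4 Gy 15 passed, 13 higher and 2 lower, or 16.5%, where 15.5% of all genes tested did. They included Cox6b2 (1.86 ± 0.45, adjusted p = 0.032), Uqcrh (0.83 ± 0.19, adjusted p = 0.0319), Ndufaf8 (1.11 ± 0.29, adjusted p = 0.0344) and Ndufb10 (0.75 ± 0.19, adjusted p = 0.0333). The 2 lower were Ndufa4 (-0.47 ± 0.15, adjusted p = 0.0477) and Atp5c1 (-0.57 ± 0.18, adjusted p = 0.0486). The count at 4 Gy was 0 without both libraries that stood apart, without either of them alone and without either IgG 4 Gy library, and 37 without anti-PD-1 4 Gy replicate 1. Libraries that enter here only through the shared spread and filter moved it too: leaving out IgG 0 Gy replicate 2 gave 26, IgG 0 Gy replicate 1 gave 5, IgG 8 Gy replicate 3 gave 8, either anti-PD-1 0 Gy library or anti-PD-1 8 Gy replicate 1 gave 6, and IgG 8 Gy replicate 2 or anti-PD-1 8 Gy replicate 2 or 3 gave 4.

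The members' direction at 4 Gy varied with transcript length and base composition, given here across genes, which are not independent replicates, as a description. At 4 Gy against 0 Gy with anti-PD-1 the Spearman correlation of the log2 fold change with annotated exon length was -0.44 over the 91 members and -0.20 over all genes with a length, and with transcript GC content 0.48 and 0.51. With IgG the values were 0.00 and -0.06 for length and -0.17 and -0.26 for GC. Among the 25 members with 600 to under 1200 exon bases, which include Cox4i2, Cox6b1 and Ndufa4l2, the median with anti-PD-1 was 0.56, with 12 higher and 1 lower, where the other genes of that length had a median of -0.05, 18.8% higher and 18.5% lower. Among the 35 of 1200 to under 2400 bases, such as Ndufb10 and Atp5c1, the median was 0.10, as it was for the other genes of that length. Among the 26 of 2400 bases or more, such as Ndufs1, Sdha, Atp5a1 and Uqcrc2, the median was -0.19, with 3 higher and 8 lower, where the other genes had -0.20, 10.5% higher and 30.1% lower. The 5 shortest members, under 600 bases, had a median of 0.40. They include Atp5o, whose annotated length is uncertain. The part of length, base composition and RNA quality in the calls was not tested. With values corrected for exon length, 30 members passed at 8 Gy against 4 Gy, 18 higher and 12 lower. The share of all genes called with that correction is not given.

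**Figure D4:**
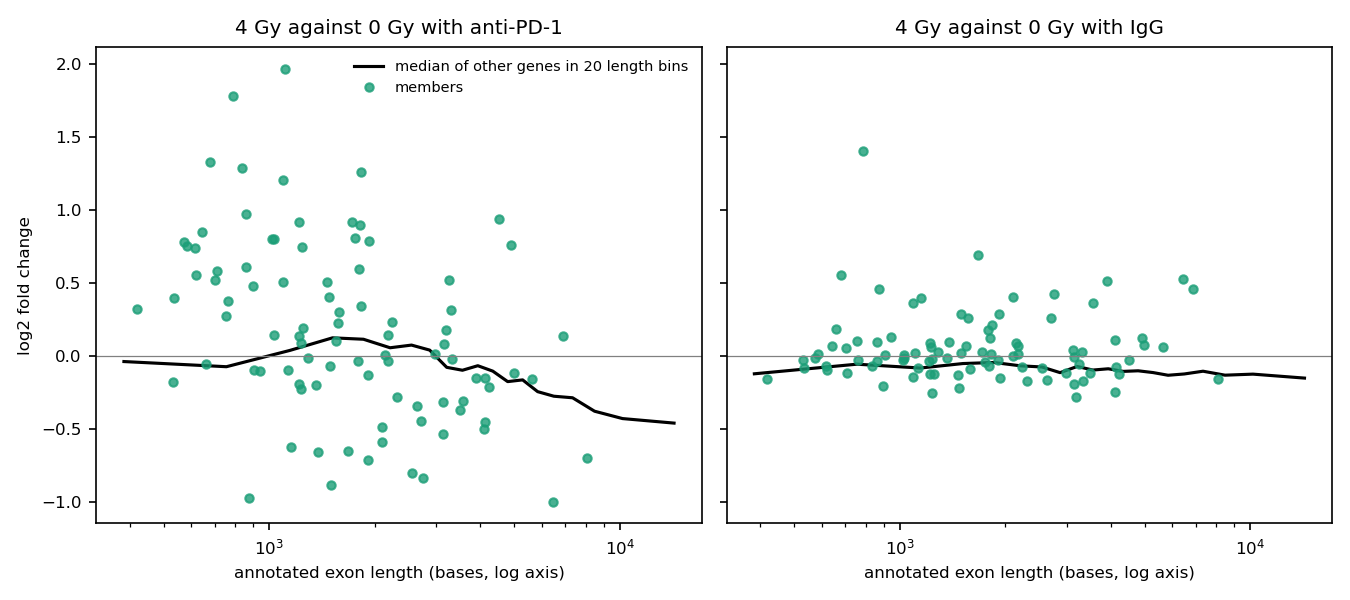
Log2 fold change of CPM + 0.5 at 4 Gy against 0 Gy against annotated exon length in bases (log axis) for the 91 members (points) in a panel for anti-PD-1 and a panel for IgG, with the median of all other genes tested in 20 bins of length (line). With anti-PD-1 most members of 600 to under 1200 bases lie above the line (median 0.56, against -0.05 for other genes) and those of 2400 bases or more scatter around it (median -0.19, against -0.20).

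Transcripts of the mitochondrial genome did not keep step with the nuclear members. The summed level of the 13 mitochondrially encoded subunit genes ran from 8901 to 31864 CPM at 0 Gy, 37122 to 58256 CPM at 4 Gy and 15108 to 73948 CPM at 8 Gy. Its ratio to the members' sum was 1.33 to 5.42 at 0 Gy, 5.43 to 9.19 at 4 Gy and 2.10 to 12.1 at 8 Gy. Of the 13 genes 9 rose and 0 fell at 8 Gy against 0 Gy (median 1.32), at 4 Gy against 0 Gy 8 rose and 0 fell (median 1.39), and at 8 Gy against 4 Gy 0 passed, with mt-Atp8 at the lowest adjusted p (-1.48 ± 0.66, adjusted p = 0.0942). mt-Cytb, the cytochrome b of complex III, rose by 1.32 ± 0.35 at 8 Gy (adjusted p = 0.0172), and mt-Co2, a core subunit of complex IV, by 1.40 ± 0.34 at 4 Gy against 0 Gy (adjusted p = 0.0211). Over the same comparisons no member outside the restricted isoforms had a log2 fold change above 1. How these transcripts entered the libraries was not tested, and haemoglobin transcripts, which come from blood, took 1939 to 30017 CPM.

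**Figure D5:**
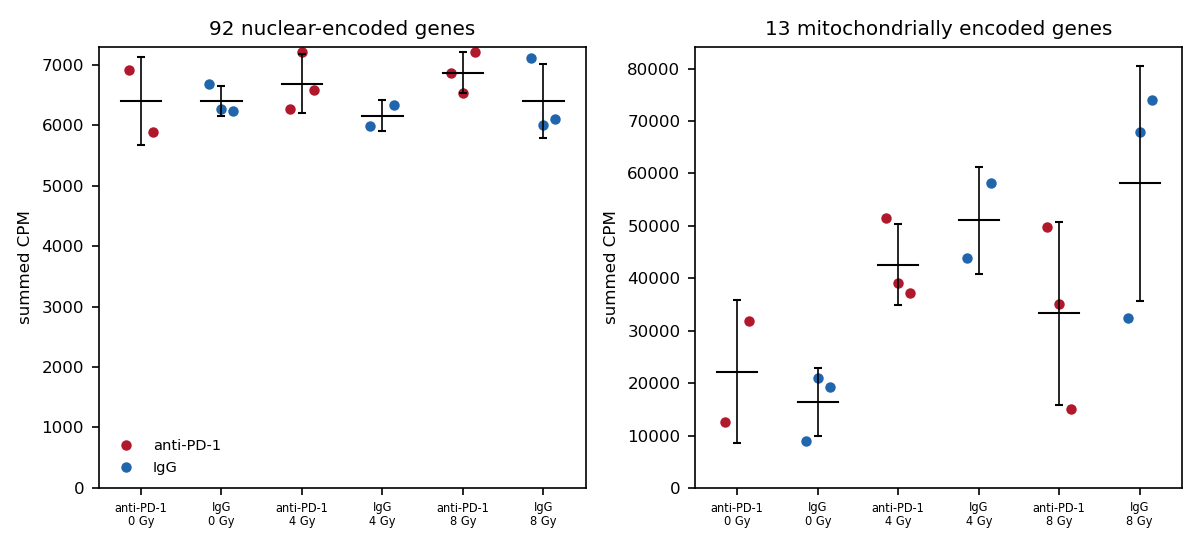
Summed CPM of the 92 nuclear-encoded members and of the 13 mitochondrially encoded subunit genes in each library, by dose in Gy and antibody, with the mean and SD of each group. The members' sum stays between 5881 and 7217 CPM, while the mitochondrially encoded sum runs from 8901 to 73948 CPM.

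Genes that work beside the chain gave the following counts, with both libraries that stood apart included. Of all genes tested 17.5% were called at 4 Gy against 0 Gy, 34.3% at 8 Gy against 4 Gy and 20.7% at 8 Gy against 0 Gy. Without both libraries 91 genes were called at 4 Gy against 0 Gy and 2200 at 8 Gy against 4 Gy. Of 16 enzyme genes of the citrate cycle and its entry, which feed electrons to the chain, 0 rose and 6 fell at 4 Gy against 0 Gy (median -0.29), 8 rose and 0 fell at 8 Gy against 4 Gy (median 0.27), and 0 passed at 8 Gy against 0 Gy. Pdha1, a subunit gene of pyruvate dehydrogenase, had -0.53 ± 0.10 at 4 Gy against 0 Gy (adjusted p = 0.0113) and 0.48 ± 0.10 at 8 Gy against 4 Gy (adjusted p = 0.0027). Fh1, the fumarase gene, had -0.41 ± 0.10 at 4 Gy against 0 Gy (adjusted p = 0.0203). Of 11 regulators of mitochondrial biogenesis 0 rose and 3 fell at 4 Gy against 0 Gy: Yy1 (-0.45 ± 0.10, adjusted p = 0.015), Gabpa (-0.46 ± 0.13, adjusted p = 0.032) and the coactivator gene Ppargc1a (-0.76 ± 0.24, adjusted p = 0.043). At 8 Gy against 4 Gy 3 of them rose and 1 fell, and at 8 Gy against 0 Gy Polrmt, the mitochondrial RNA polymerase gene, was the only 1 called (-0.55 ± 0.13, adjusted p = 0.00909). Of 31 assembly factors of complexes II to V, 2 rose and 1 fell at 8 Gy against 0 Gy, 1 rose and 1 fell at 4 Gy against 0 Gy, and 3 rose and 2 fell at 8 Gy against 4 Gy. Cox17, the copper chaperone gene of complex IV, rose at 4 Gy against 0 Gy (0.51 ± 0.12, adjusted p = 0.0193), and Sco2, another copper carrier, had -1.40 ± 0.35 at 8 Gy against 4 Gy (adjusted p = 0.00851). Cycs, which encodes cytochrome c, rose at 8 Gy against 0 Gy (0.68 ± 0.23, adjusted p = 0.0496).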

How the data were processed

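RNA was measured in 16 libraries of 6 groups from lungs bearing HKP1 tumours. Per the labels' protocols, RNA came from ground lungs with a column kit and libraries from the TruSeq RNA kit. STAR and Partek were used on mm10, per the submitters' processing notes. No source used here names their versions, the annotation, the counting or whether strand was used. The deposited values are CPM, reads scaled per library by the authors, to which they had added 1e-04, and this was subtracted. Whole reads could not be recovered, which bars a count model. Per library, a floor of 3 reads was 0.0465 to 0.125 CPM and covers counting error only. Each library's group and replicate came from its title, and 0 columns of samples were left unmapped.

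Genes with at least 1 CPM in 2 or more libraries (17546) entered limma 3.58.1 as log2(CPM + 0.5) (trend and robust, in R 4.3.3 with version 1.17.8 of data.table) as 1 model with a mean for each of the 6 groups and no block. This gave 16 comparisons, and p-values were adjusted by Benjamini-Hochberg over all genes tested, with a threshold of 0.05. On data simulated for 8 Gy against 0 Gy over both antibodies (17546 genes, 50 changed at each size) 40% of 1.5-fold changes were recovered, 82% of 2-fold, 96% of 4-fold and 100% of 8-fold ones, and 3 unchanged genes were called. The simulated noise was independent between genes, and changed genes were drawn only from those above a set mean level. Shifts of whole libraries were not simulated, so these rates may not hold for the real data.

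Exon lengths and transcript GC came from GENCODE M21 (30016 genes matched, 17511 of those tested, and all 92 members). For members other than Atp5o the deposited stop lies 1 base past the annotated end. Atp5o has a stop of 91931688 against an annotated end of 91926982, and a second Atp5o record overlaps it. The exon length and GC used for Atp5o are therefore uncertain. Of the members 34 overlap a gene on the other strand and 5 have a pseudogene named after them, so their reads may be shared. Overlap was taken from whole gene spans and not from exons, and pseudogenes under other names were not counted. The members, gene lists and marker lists were chosen with earlier results of these data known. Named were, in each of the 4 comparisons that pool antibodies or doses, every member past the threshold (with over 12 in a direction, the 8 with the lowest p and the 4 largest), a fixed set of subunits and isoforms, the highest and lowest members, and up to 2 genes of each other list. Members with an interaction past the threshold, and examples within antibodies, were named after their values were seen.

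Alternatives were 3 other scalings, no filter, a block on the replicate number, pseudocounts of 0.1 and 1, fitting the groups compared alone, an additive model, limma without trend or robust, corrections for exon length, leaving out libraries and, chosen after seeing the data, a correction for transcript GC. A correction for GC from the genome sequence was planned and was not run.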

Additional observations from a re-analysis of the deposited data

Results flagged for a closer look

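For 6 members the difference of 4 Gy against 0 Gy itself differed between anti-PD-1 and IgG in the interaction test of limma. The difference was more positive with anti-PD-1 for Ndufb10, by 1.05 ± 0.27 on the log2 scale (adjusted p = 0.0418), for Uqcrh by 1.00 ± 0.27 (adjusted p = 0.0447) and for Cox7a2l by 0.62 ± 0.17 (adjusted p = 0.0444). It was more negative with anti-PD-1 for Atp5l (-1.52 ± 0.40, adjusted p = 0.0426), Atp5g2 (-1.34 ± 0.37, adjusted p = 0.0448) and Ndufa4 (-0.75 ± 0.21, adjusted p = 0.0454). Atp5g2 stood at 0.423, 0.776 and 0.916 CPM with anti-PD-1 and 1.51 and 1.63 CPM with IgG at 4 Gy, against 1.43 and 1.30 CPM with anti-PD-1 and 0.682, 1.24 and 0.535 CPM with IgG at 0 Gy. Cox7a2l stood at 160, 191 and 177 CPM with anti-PD-1 and 121 and 145 CPM with IgG at 4 Gy, against 132 and 133 CPM with anti-PD-1 and 148, 158 and 158 CPM with IgG at 0 Gy. None of the 6 passed without both libraries that stood apart, where 0 of all genes tested did, and Ndufa4 turned sign with values corrected for transcript GC (0.076).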

How the results depend on the processing

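Whether the replicate numbers of the titles mark a pairing is not known. Residuals of same-numbered libraries correlated at -0.546 to 0.442 (median -0.101, 11 of 36 pairs over 0.1). Those of differently numbered libraries correlated at -0.442 to 0.592 (median 0.0165, 26 of 70 pairs over 0.1). In the smallest groups the residuals mirror each other, which limits this check. With the replicate block the count of members past the threshold was 1 at 8 Gy against 0 Gy over both antibodies, 7 at 4 Gy against 0 Gy over both antibodies, and 0 both in the interaction of 4 Gy against 0 Gy and between anti-PD-1 and IgG at 4 Gy.

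At 8 Gy against 0 Gy over both antibodies, where no member passed, the count was 5 with quantile normalization, 9 with equal library medians, 4 with CPM rescaled without mitochondrially encoded and haemoglobin genes, 2 without both libraries that stood apart, 2 with the length correction, 5 with the GC correction, 2 with the GC correction and the block, 1 with the groups compared only and 1 without trend or robust. Quantile normalization moved the median of all genes there to 0.03 (1421 higher, 1764 lower). At 4 Gy against 0 Gy over both antibodies (11) it was 21 with quantile normalization, 6 in the additive model, 0 without both libraries and 0 with the groups compared only. Rescaled CPM gave 12 higher and 2 lower there, and 1057 higher and 1155 lower over all genes. For 8 Gy against 4 Gy over both antibodies (19) it was 2 without both libraries and 30 with the length correction. For anti-PD-1 against IgG over all doses (0) it was 1 with the GC correction.

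Within antibodies, the count at 8 Gy against 0 Gy with IgG (0) was 1 with the length correction, 1 with the GC correction and 1 with that and the block. For 4 Gy against 0 Gy it was 6 in the additive model, against 0 with IgG and 40 with anti-PD-1, and with anti-PD-1 0 without both libraries and 26 with the groups compared only. For 8 Gy against 4 Gy the additive model gave 17, against 0 with IgG and 36 with anti-PD-1. There the count was 0 with anti-PD-1 without both libraries, and with IgG 1 with the length correction and 2 with the groups compared only. Between anti-PD-1 and IgG at 4 Gy (15) it was 5 with no filter, 6 without trend or robust, 6 with the GC correction, 2 with the groups compared only, and 0 in the additive model, without both libraries, and with the length or the GC correction and the block. The interaction of 4 Gy against 0 Gy (6) gave 2 without trend or robust and 0 with no filter, without both libraries, with the groups compared only, with the GC correction, and with the length or the GC correction and the block. That of 8 Gy against 4 Gy (0) gave 1 with the groups compared only. The causes were not tested.

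Leaving out each library in turn gave, over both antibodies, 0 to 4 members at 8 Gy against 0 Gy, 0 to 30 at 4 Gy against 0 Gy and 10 to 29 at 8 Gy against 4 Gy, and 0 to 2 for anti-PD-1 against IgG over all doses. It gave 0 to 5 at 8 Gy against 0 Gy with IgG and 0 to 0 with anti-PD-1, 0 to 1 at 4 Gy against 0 Gy with IgG and 2 to 47 with anti-PD-1, and 0 to 2 at 8 Gy against 4 Gy with IgG and 18 to 46 with anti-PD-1. Between anti-PD-1 and IgG it gave 0 to 0 at 0 Gy, 0 to 37 at 4 Gy and 0 to 0 at 8 Gy, and for the interactions 0 to 0 (8 Gy against 0 Gy), 0 to 36 (4 Gy against 0 Gy) and 0 to 20 (8 Gy against 4 Gy).

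Signs turned at 8 Gy against 4 Gy for Atp5f1 (-0.039 with the GC correction, -0.050 with the block too) and Cox7b (-0.065 and -0.071), and in the interaction of 4 Gy against 0 Gy for Ndufa4 (0.076 and 0.045). Cox4i2 at 8 Gy against 0 Gy, -0.08 as reported and not called, was 0.19 with quantile normalization, 0.031 with equal medians and 0.037 with the GC correction, and ran from -0.32 to 0.16 when each library was left out in turn, with 0.16 without IgG 0 Gy replicate 3 and 0.03 without IgG 8 Gy replicate 1. Of the 31 alternatives Cox4i2 and Ndufa4l2 at 8 Gy against 4 Gy passed in each, Cox4i2 at 4 Gy against 0 Gy in 28, Sdha there in 25 and Uqcrc2 there in 8.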
